A study of Mus musculus with 12 samples.

Results

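The nuclear-encoded subunits of the mitochondrial respiratory chain and ATP synthase were followed through the conversion of mouse fibroblasts to sphere cells. Members were every probe whose symbol in the platform annotation names a Nduf, Sdh, Uqcr, Cox4 to Cox8 or Atp5 subunit, which gave 94 probes of 72 genes, out of 22380 annotated probes of 15366 genes. By complex these were 28 genes of complex I, 3 of complex II, 8 of complex III, 16 of complex IV and 17 of complex V. The subunit genes Ndufab1 (complex I) and Cyc1 (complex III) fall outside the symbol patterns used and are not counted as members. Transcript levels came from 12 Illumina bead arrays of total RNA, 3 for each of 4 groups. Fibroblasts (MEF) were primary cells from FVB/N embryos with a neomycin resistance gene. Spheres, also FVB/N, were sampled at passage 5 and again at passage 15. The J11 line of embryonic stem cells (MES), strain 129/Sv, is labelled as the control. Per the series title, conversion took place in medium with AlbuMAX I, an albumin preparation rich in lipid. The labels do not say whether the 3 arrays of a group came from separate cultures, so p-values measure the spread between these arrays. MES cells differ from the other groups in strain as well as in cell type.

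The respiratory chain sits in the inner mitochondrial membrane. Complex I (NADH dehydrogenase) and complex II (succinate dehydrogenase) pass electrons to ubiquinone, complex III passes them to cytochrome c, and complex IV (cytochrome c oxidase) passes them to oxygen. The proton gradient built on the way drives complex V, the ATP synthase. Most subunits are encoded in the nucleus, and several subunits of complex IV exist in a widely expressed form and in forms restricted to particular tissues. Pluripotent stem cells are known to rely more on glycolysis than fibroblasts do.

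Of the 72 genes, 65 passed the detection filter, which asked for a detection p under 0.05 in every array of some group. They were measured by 77 probes and stood among 9344 genes tested. The 7 that did not pass were Cox6a2, Cox7b2 and Cox8b (tissue-restricted forms of complex IV subunits), Uqcrfs1 (the Rieske protein of complex III), Uqcrq, Ndufs1 and Atp5md, none above background on more than 2 of the 12 arrays. Of the 65 genes, 64 were above background on all 12 arrays. The exception was Ndufc2, a membrane-arm subunit of complex I, which was detected on 3 of 3 MEF arrays, 3 of 3 passage 5 arrays, 0 of 3 passage 15 arrays and 1 of 3 MES arrays. Sdha, the flavoprotein of complex II, and the subunits encoded by mitochondrial DNA were not analysed here. In bulk RNA of this kind, fewer cells of a type and less RNA per cell cannot be told apart.

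Promoter windows were available for 59 of the 72 genes from RefSeq (mouse build GRCm38.p6), and the 250 bases before the start were read. The gene pair Cox7a1 and Cox7a2 is shown because both encode subunit VIIa of complex IV, Cox7a1 as the heart, muscle and brown fat form and Cox7a2 as the widely expressed form. Cox5a, Ndufa6 and Atp5c1 are shown because, with Cox7a1, they are the members called higher in both comparisons made within a chip. Capitals mark each CG pair, and each window is written 5′ to 3′ on the strand of its gene. They lie at chr7:30183921-30184170 (Cox7a1, forward strand), chr9:79759854-79760103 (Cox7a2, reverse strand), chr9:57520982-57521231 (Cox5a, forward strand), chr15:82354292-82354541 (Ndufa6, reverse strand) and chr2:10080433-10080682 (Atp5c1, reverse strand). RefSeq gives Atp5c1 a pair of overlapping windows, of which the one with more CG pairs is shown.
Cox7a1: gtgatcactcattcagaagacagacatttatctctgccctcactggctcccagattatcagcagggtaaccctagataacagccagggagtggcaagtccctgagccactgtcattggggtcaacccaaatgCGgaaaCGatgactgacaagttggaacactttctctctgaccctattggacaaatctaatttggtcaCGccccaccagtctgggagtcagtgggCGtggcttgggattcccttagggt
Cox7a2: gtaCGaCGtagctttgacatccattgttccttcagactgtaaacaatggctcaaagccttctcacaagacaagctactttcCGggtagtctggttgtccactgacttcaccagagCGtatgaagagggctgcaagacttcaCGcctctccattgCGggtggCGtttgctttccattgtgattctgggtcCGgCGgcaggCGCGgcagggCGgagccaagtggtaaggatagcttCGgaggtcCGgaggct
Cox5a: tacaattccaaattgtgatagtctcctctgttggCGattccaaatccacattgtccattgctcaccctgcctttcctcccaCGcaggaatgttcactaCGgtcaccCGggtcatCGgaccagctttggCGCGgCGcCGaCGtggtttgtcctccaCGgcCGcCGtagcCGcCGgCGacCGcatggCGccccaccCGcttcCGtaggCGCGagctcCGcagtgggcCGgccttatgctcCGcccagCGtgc
Ndufa6: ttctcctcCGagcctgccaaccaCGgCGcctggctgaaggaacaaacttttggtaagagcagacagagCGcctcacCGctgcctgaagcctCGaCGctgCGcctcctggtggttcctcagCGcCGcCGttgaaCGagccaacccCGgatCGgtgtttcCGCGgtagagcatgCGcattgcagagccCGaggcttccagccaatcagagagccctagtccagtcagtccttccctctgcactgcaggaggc
Atp5c1: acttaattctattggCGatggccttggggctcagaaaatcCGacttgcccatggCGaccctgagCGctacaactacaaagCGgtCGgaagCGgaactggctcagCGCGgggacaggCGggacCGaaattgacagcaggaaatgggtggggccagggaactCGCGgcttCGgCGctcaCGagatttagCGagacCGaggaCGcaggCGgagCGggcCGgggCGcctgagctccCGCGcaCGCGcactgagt
The Cox7a1 window holds 4 CG pairs, that of Cox7a2 14, that of Cox5a 26, that of Ndufa6 18 and that of Atp5c1 27. Over the 4 tissue-restricted complex IV genes with a window the count ran from 1 to 9 (median 6), and over the 8 widely expressed ones from 5 to 26 (median 14). Both ends of the tissue-restricted range, Cox8b (1) and Cox7b2 (9), are genes that did not pass the detection filter. The median was 14 over all 59 members and 16 over the 7595 tested genes with a window. Uqcrfs1 and Atp5md, also among the 59, did not pass the filter either.

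Windows were also searched, on both strands, for a binding motif of NRF1 (its palindromic core), a motif of ETS factors such as GABP (CCGGAAG), a motif of YY1 (AANATGGC) and a TATA box (TATAAA). NRF1, GABP and YY1 are known activators of nuclear genes for the respiratory chain. The NRF1 letters were present in 9 of 59 members (15.3%), against 8.87% of the tested genes with a window. The ETS letters were present in 10 members (16.9%, against 15.1%), the YY1 letters in 5 (8.47%, against 5.2%) and the TATA letters in 7 (11.9%, against 9.28%). The 59 members include Cox7b2, Cox8b, Uqcrfs1 and Atp5md, which are not among the tested genes. Cox7b2 and Atp5md are among the 7 with the TATA letters, so member and background shares are not over like sets. Cox6a1, the widely expressed form of subunit VIa, held both the NRF1 letters, at 2 places, and the ETS letters, read here on the opposite strand, as the capitals in its window at chr5:115348959-115349208 (reverse strand) show.
Cox6a1: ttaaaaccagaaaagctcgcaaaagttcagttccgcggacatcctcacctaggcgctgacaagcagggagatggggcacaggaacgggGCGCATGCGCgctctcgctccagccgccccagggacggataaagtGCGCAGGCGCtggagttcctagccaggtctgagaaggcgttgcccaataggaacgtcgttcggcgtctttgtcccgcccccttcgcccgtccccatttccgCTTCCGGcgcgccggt
None of the 5 windows printed before it holds the ETS or YY1 letters, and of these 5 the Atp5c1 window alone holds the NRF1 letters. These matches describe letters, not binding.

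The leading number of the array code in each sample title was read as its chip, which gave 3 chips. The titles themselves do not name a chip. All passage 15 and MES arrays were on chip 1, replicates 1 and 2 of MEF and of passage 5 on chip 2, and replicate 3 of both on chip 3. Passage 5 and MEF were thus balanced over chips 2 and 3, and passage 15 and MES shared chip 1. These 2 comparisons are called within chips, though the main fit had no chip term. In the other 4 comparisons chip and group cannot be told apart. Each array detected 33.8% to 40.9% of the probes analysed, and arrays of a group correlated at 0.976 or more across genes. The label check was mixed for MEF. All 11 fibroblast markers measured were detected on all 3 MEF arrays, but so were 8 of 10 pluripotency markers, among them Pou5f1 and Sox2. The groups labelled sphere and MES also had 8 or 9 of the 10 detected, and macrophage and blood markers were detected on all 3 arrays of no group.

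Between MEF and passage 5 spheres, few respiratory chain subunits were lower at passage 5, and the subunits called higher were led by Cox7a1 of complex IV. Of 65 members, 17 were higher at an adjusted p under 0.05 in limma's moderated test (26.2%, against 20.8% of all 9344 genes), and 1 was lower (1.54%, against 15.2%). The difference was positive for 54 members, against 5144 of 9344 genes, and the median difference was 0.23 on the log2 scale for members and 0.05 for all genes. Arrays did not overlap for 34 members with passage 5 above (31% of all genes did so) and for 2 with passage 5 below (20.6%). At least 2-fold, 3 members were higher (4.62%, against 4.86% of all genes) and 0 lower (0%, against 6.98%), and the 3 became 1 in the authors' log2 table, 2 on chip 2 alone or without background correction, and 6 with median centring. Within chip 2 the median member difference was 0.16, with 0.02 for all genes, and within chip 3 it was 0.34, with 0.11. Of the 65, 45 were positive on both chips (69.2%, against 46.6% of all genes) and 5 negative on both (against 3358 of 9344 genes). The share called higher depended on single arrays. The count of 17 became 7 without passage 5 replicate 3 (10.8%, against 14.6% of all genes) and 8 without passage 5 replicate 2 (12.3%, against 15.9%). It became 9 without MEF replicate 2 (13.8%, against 16.9%) and 10 without MEF replicate 3 (15.4%, against 17%). In these 4 settings the member share lay below that of all genes, and in the full data above it. The count of 1 lower moved to 0, 1, 0 and 3 in the same order, with all-gene shares of 11.9% to 14.8%. When each array was centred on its median in place of quantile normalization, the median of all genes moved from 0.05 to 0.30 and 37 members were called higher and 0 lower. The member median then lay 0.22 above that of all genes, against 0.18 with quantile normalization.

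**Figure D1:**
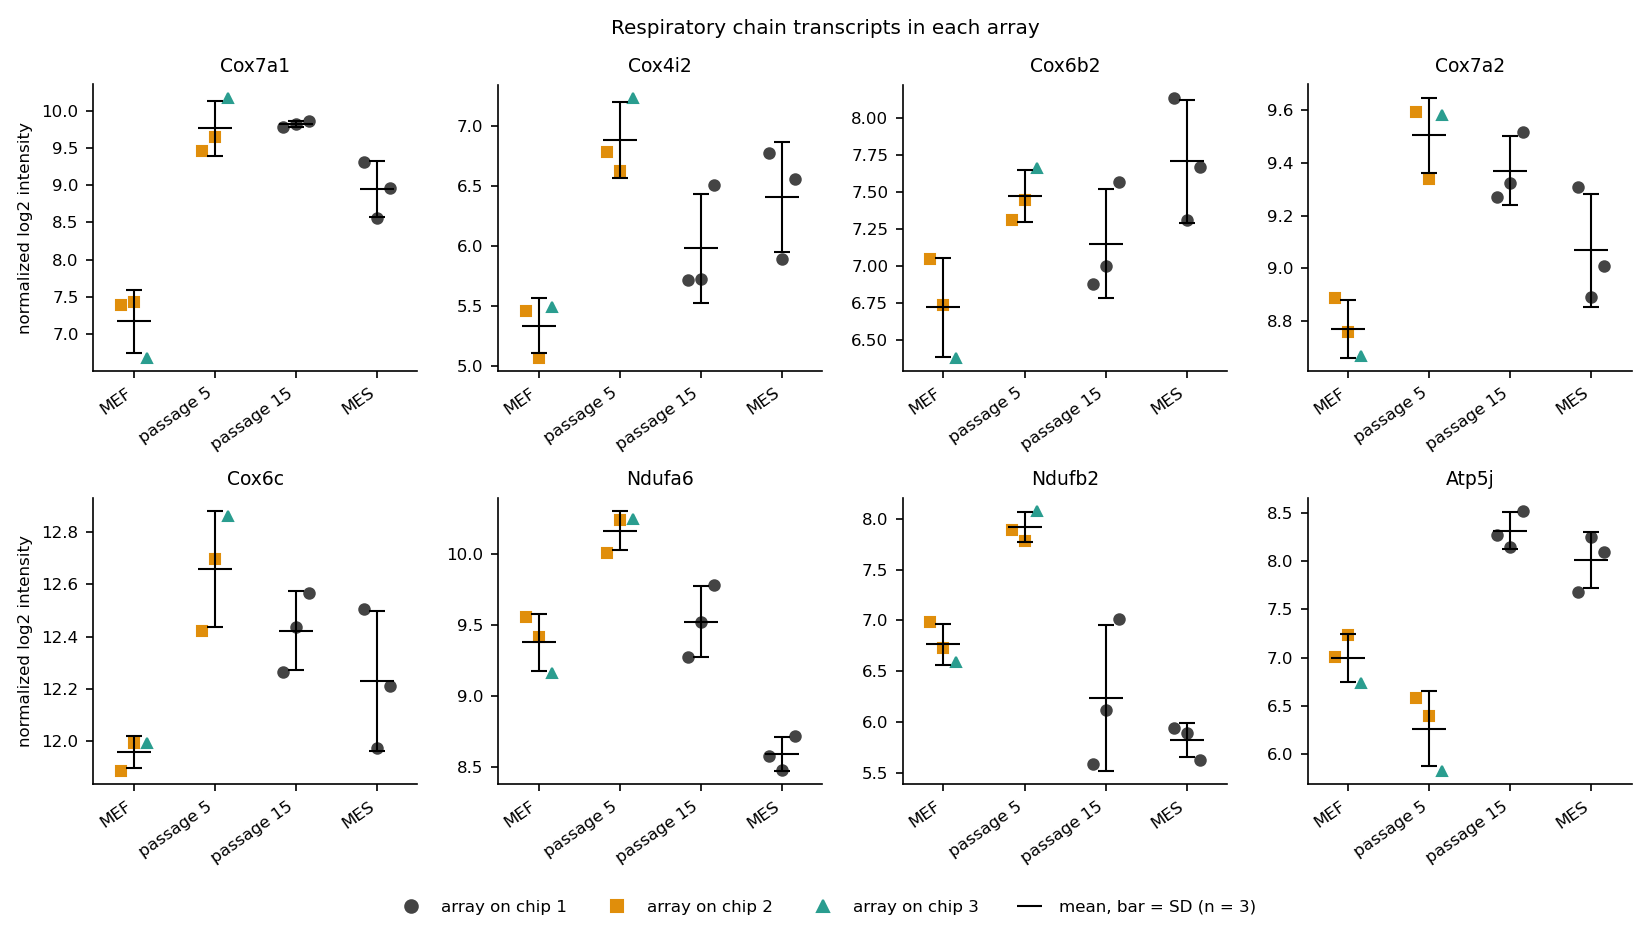
Normalized log2 intensity (vertical axis) of 8 respiratory chain genes on each of the 12 arrays, by group, with marker shape and colour giving the chip and bars giving the mean and SD of 3 arrays. In the panel of Cox7a1 the 3 MEF arrays, at 6.69 to 7.43, lie below the 9 other arrays, and in that of Ndufa6 the 3 MES arrays, at 8.48 to 8.72, lie below the 9 others.

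In complex IV, 7 of 13 genes were higher (53.8%, against 20.8% of all genes) and 0 lower (against 15.2%). All 13 had a positive difference, with a median of 0.47, against 0.19 for complex I, 0.24 for complex II, 0.07 for complex III (-0.05 without MEF replicate 3) and 0.22 for complex V. Its count of 7 was 4 without MEF replicate 3, without passage 5 replicate 2 or without passage 5 replicate 3, with 0 lower each time. The 3 tissue-restricted complex IV forms that were measured were all among the 7. Whether complex IV differed from the other complexes was not tested.

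Cox7a1 had the largest difference of any member. Its normalised log2 intensity was 7.39, 7.43 and 6.69 on the MEF arrays, 9.46, 9.65 and 10.18 at passage 5, 9.78, 9.82 and 9.85 at passage 15, and 9.31, 8.56 and 8.96 in MES. Every MEF array lay below every array of the other groups, and the passage 5 arrays spanned the passage 15 values. The rise from MEF to passage 5 was 2.59 (SE 0.24, adjusted p = 4.23e-06), which is 6.02-fold. Within chip 2 it was 2.14 and within chip 3 it was 3.49. Its widely expressed counterpart Cox7a2 read 8.89, 8.76 and 8.67 in MEF and 9.59, 9.34 and 9.58 at passage 5, a rise of 0.73 (SE 0.14, adjusted p = 0.00111) with no overlap. Both forms of subunit VIIa were thus higher at passage 5.

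Cox4i2 encodes the form of subunit IV known from lung and from cells at low oxygen. It read 5.46, 5.07 and 5.49 in MEF, 6.78, 6.63 and 7.23 at passage 5, 5.71, 5.73 and 6.51 at passage 15, and 6.77, 5.90 and 6.55 in MES. MEF arrays were again below all others, and MES and passage 15 arrays overlapped. The rise from MEF to passage 5 was 1.54 (SE 0.26, adjusted p = 4.88e-04), or 2.91-fold. Cox4i1, the widely expressed form, differed by 0.14 between the same groups and was not called, with overlapping arrays. Cox6b2, the testis form of subunit VIb, rose by 0.75 (adjusted p = 0.0243), from 7.05, 6.73 and 6.38 to 7.31, 7.44 and 7.66. Its widely expressed counterpart Cox6b1 differed by 0.05 and was not called.

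The other complex IV genes called were Cox6c, Cox5a and Cox7b, which are widely expressed. Cox6c read 11.89, 11.99 and 11.99 in MEF and 12.42, 12.69 and 12.86 at passage 5, with no overlap and a rise of 0.70 (adjusted p = 0.0035). Cox5a rose by 0.49 (adjusted p = 0.021) and Cox7b by 0.47 (adjusted p = 0.0404). Neither gene's arrays overlapped between the groups. Cox5a lost the call without MEF replicate 3 or without passage 5 replicate 2 or 3, and Cox7b lost it without any single array of these groups other than MEF replicate 1. The 4 remaining genes with overlapping arrays were Cox4i1, Cox6b1, Cox7c and Cox8a, at 0.02 to 0.20.

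Tissue markers moved between the same arrays as these forms, and their part in the complex IV result was not tested. Of 5 skeletal and cardiac muscle markers tested, 4 fell from MEF to passage 5, and the summed linear level of all 8 on the array went from between 2805 and 6348 to between 251 and 353, so these markers were lower where Cox7a1 was higher. Ckm and Myog, defining muscle genes, were undetected on all MEF and passage 5 arrays. Of 3 brown adipocyte markers tested, Ucp1, the uncoupling protein of brown fat, and Cidea rose, Cidea by 0.93, while Adipoq fell by 0.53. Ucp1 was above background on 1 of 3 MEF arrays and 3 of 3 passage 5 arrays (fitted difference 3.96, adjusted p = 2.94e-08 in limma), so it passed the filter through groups other than MEF and the size of its rise rests on values mostly at background. Ppargc1a and Elovl3 were above background on no array of either group. The summed level of the 6 brown adipocyte markers went from between 170 and 197 to between 482 and 686. All 11 fibroblast markers fell (median -3.14, summed level 29182 to 50975 in MEF and 3149 to 8890 at passage 5) and all 8 early endoderm markers rose (median 3.19, summed level 843 to 1117 and 7161 to 10204). Of 5 endothelial markers tested, 4 rose and 0 fell (summed level 396 to 637 and 1140 to 1543, with Kdr undetected in both groups).

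In complex I, 6 of 27 genes were higher at passage 5 than in MEF, a share of 22.2% near the 20.8% of all genes. In the same comparison 0 were lower (against 15.2% of all genes). The 6 became 3 without MEF replicate 2, MEF replicate 3 or passage 5 replicate 3, and the 0 became 2 without MEF replicate 3. Ndufb2, of the membrane arm, read 6.99, 6.73 and 6.59 in MEF and 7.89, 7.78 and 8.08 at passage 5, and rose by 1.15 (SE 0.27, adjusted p = 0.00463), or 2.22-fold. Ndufa6, of the quinone-binding arm, read 9.55, 9.41 and 9.16 in MEF and 10.002, 10.24 and 10.25 at passage 5, and rose by 0.79 (SE 0.15, adjusted p = 0.00137). Neither gene's arrays overlapped between the groups, and both differences kept their sign on chips 2 and 3 apart. Ndufb4 (0.63) and Ndufb8 (0.57) of the membrane arm, Ndufv3 (0.54) of the NADH-oxidising arm and Ndufa3 (0.41) of the membrane arm made up the 6. The call for Ndufb8 depends on the probe. Its brighter probe rose by 0.57 (adjusted p = 0.00255) and its other probe, fitted among all probes, differed by -0.59 (adjusted p = 0.073).

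Complex V had 4 of 16 genes higher (25%, against 20.8% of all genes) and 1 lower (6.25%, against 15.2%). The 4 became 0 without passage 5 replicate 2 or 3, and 1 without MEF replicate 2. The 4 were Atp5e (0.59), the epsilon subunit of the central stalk, Atp5c1 (0.44), the gamma subunit, and the small membrane subunits Atp5j2 (0.43) and Atp5mpl (0.39). Atp5c1 read 11.58, 11.68 and 11.65 in MEF and 11.85, 12.16 and 12.22 at passage 5, with no overlap. The gene that fell was Atp5j, coupling factor 6 of the peripheral stalk, from 7.0035, 7.24 and 6.74 to 6.58, 6.39 and 5.82, a difference of -0.73 (SE 0.21, adjusted p = 0.0155). Passage 5 arrays were all below MEF arrays for Atp5j. This call was lost without MEF replicate 2, without passage 5 replicate 3 and with median centring. The 3 genes of the rotor ring, Atp5g1, Atp5g2 and Atp5g3, differed by -0.05 to -0.02 and were not called. None of the 3 complex II or 6 complex III genes was called in limma at an adjusted p under 0.05, with differences of 0.09 to 0.28 and -0.06 to 0.28.

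The calls for Cox7a1, Cox4i2, Cox7a2, Cox6c, Ndufa6 and Ndufb2 held under all 18 alternative settings tried for passage 5 against MEF. Over these settings Cox7a1 ranged from 2.14 to 2.84, Cox4i2 from 0.98 to 1.87 and Ndufb2 from 0.92 to 1.41. The other 12 called members each lost the call under at least 1 setting.

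**Figure D2:**
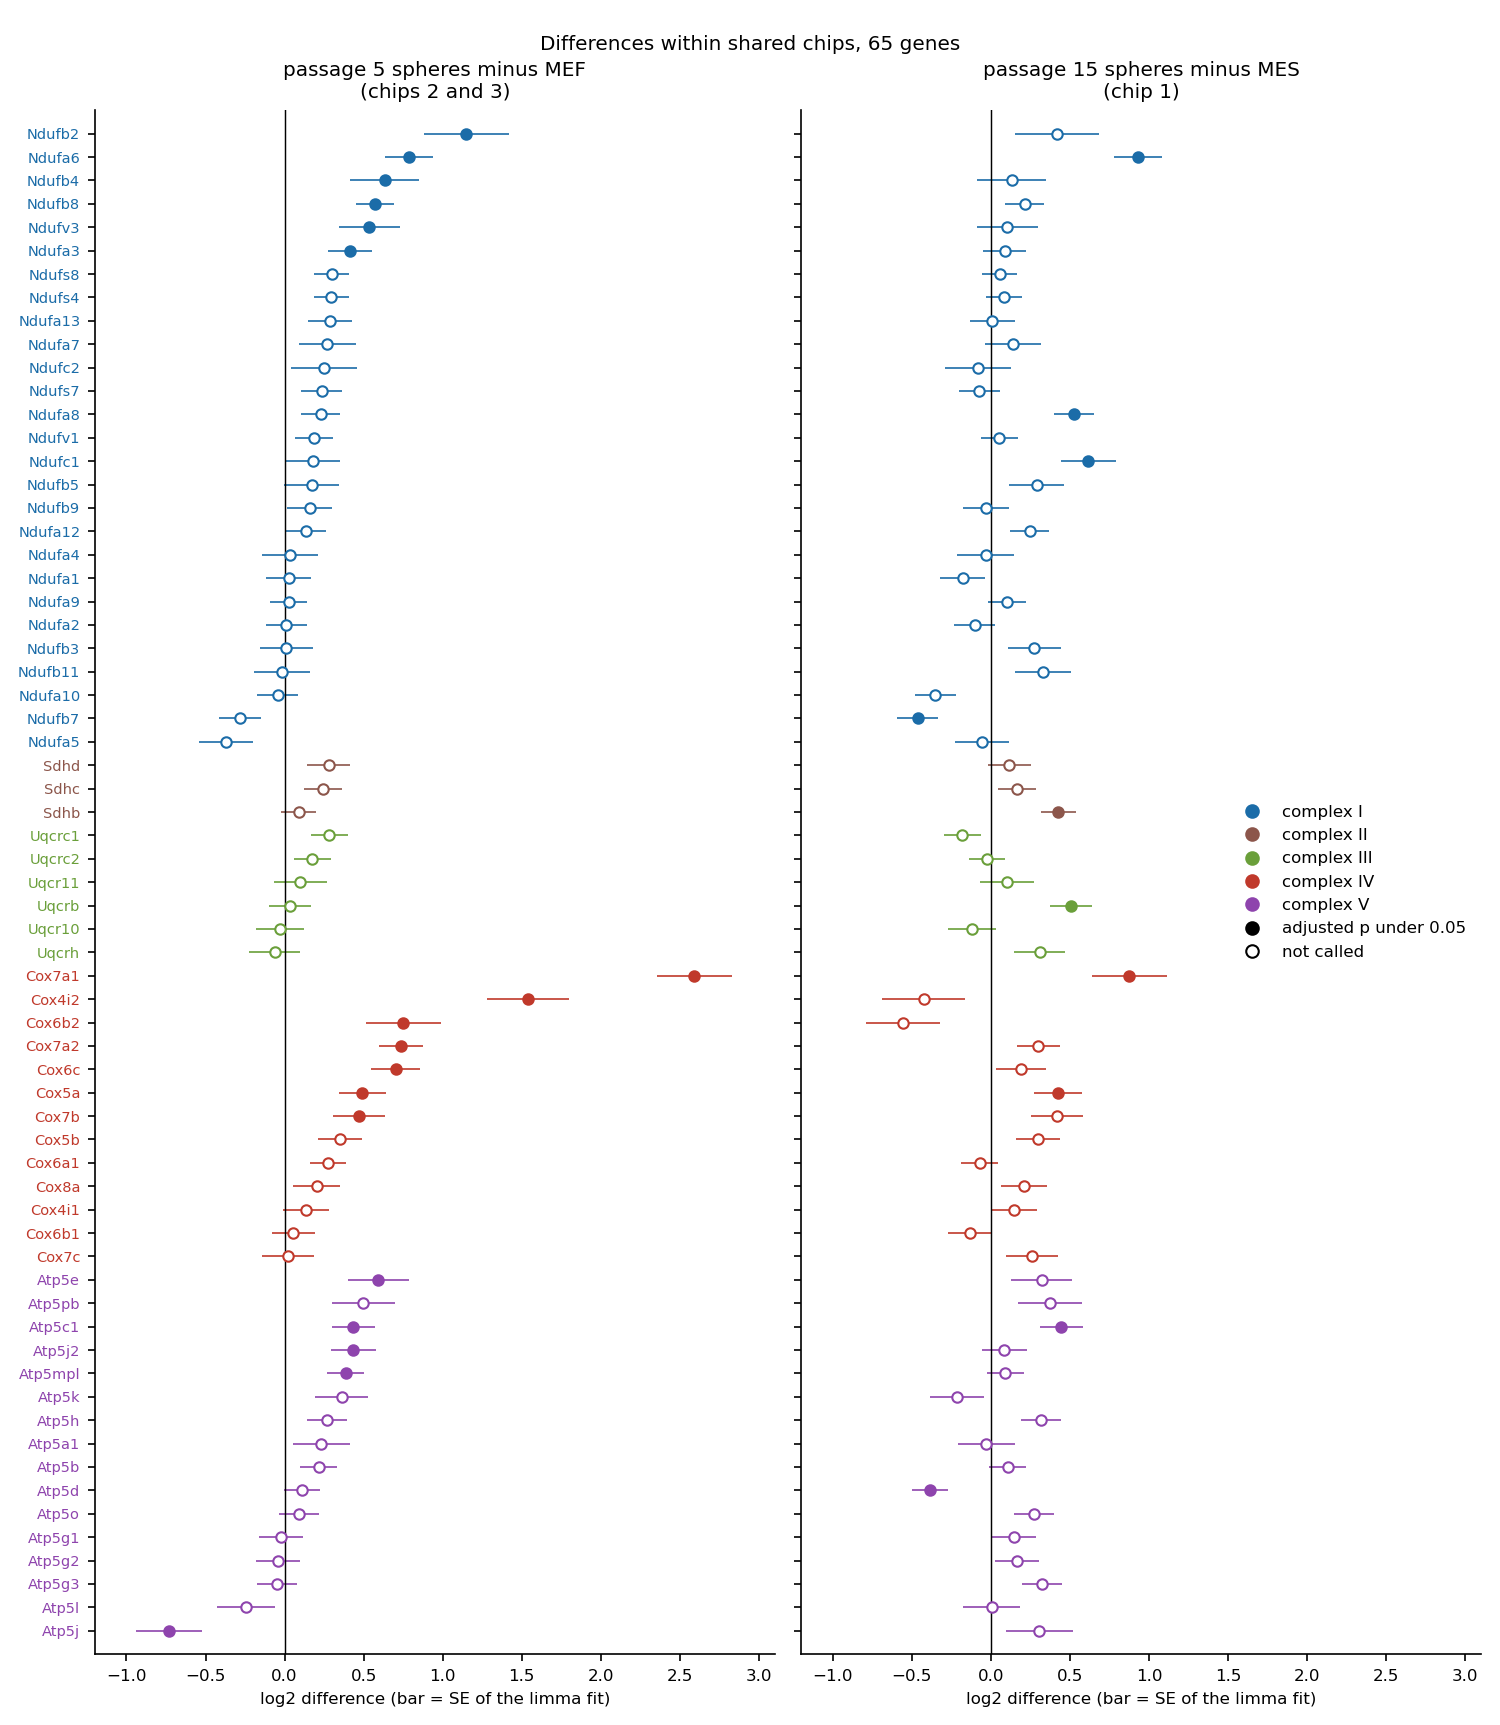
Differences on the log2 scale (horizontal axis, bars are the SE of the limma fit) of the 65 genes in the 2 comparisons made within a chip, coloured by complex, with filled points for an adjusted p under 0.05. At passage 5 against MEF the points of complex IV all lie right of 0 with Cox7a1 at 2.59, and at passage 15 against MES all called points lie between -0.46 and 0.93.

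Passage 15 spheres and MES, both on chip 1, differed in few respiratory chain subunits. Of 65 members, 8 were higher at passage 15 (12.3%, against 14.8% of all genes) and 2 were lower (3.08%, against 13.2%). No member differed by 2-fold or more at an adjusted p under 0.05, against 3.36% of all genes higher and 3.54% lower, though 1 was higher without passage 15 replicate 1 or MES replicate 1. The median difference was 0.13 for members and 0.01 for all genes, with 46 of 65 positive. The member median was 0.06 without passage 15 replicate 3, 0.22 without passage 15 replicate 1 and 0.07 with median centring. Arrays did not overlap for 14 members with passage 15 above (22.2% of all genes) and for 4 with it below (20.7%). Complex medians ran from 0.04 (complex III, -0.04 without passage 15 replicate 3) to 0.21 (complex IV). The count of 8 was 13 without passage 15 replicate 1, 5 without passage 15 replicate 2, and 4 without passage 15 replicate 3, MES replicate 1 or MES replicate 2. The count of 2 was 0 without passage 15 replicate 1 or 2, 4 without MES replicate 2, and 1 without MES replicate 1 or 3. With median centring, 2 were higher and 0 lower.

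Ndufa6 had the largest of these differences and was the one called under all 16 alternatives. It read 9.27, 9.52 and 9.78 at passage 15 and 8.58, 8.48 and 8.72 in MES, with no overlap, and the difference was 0.93 (SE 0.15, adjusted p = 8.24e-04), or 1.91-fold. Across the 4 groups its MES arrays were the lowest and its passage 5 arrays the highest, with MEF and passage 15 overlapping between them. Cox7a1 was higher at passage 15 than in MES by 0.88 (SE 0.24, adjusted p = 0.0156), a call lost without MES replicate 2 (0.0606 was its highest adjusted p in any alternative). Its passage 15 arrays all lay above its MES arrays. Cox4i2 and Cox6b2 differed by -0.43 and -0.56 and were not called, with overlapping arrays.

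Ndufc1 (0.62) and Ndufa8 (0.53), both of the membrane arm of complex I, were higher at passage 15 than in MES. So were Uqcrb (0.51), a small subunit of complex III, Atp5c1 (0.45), Sdhb (0.43), the iron-sulfur subunit of complex II, and Cox5a (0.43, adjusted p = 0.0499). Ndufb7 (-0.46), of the membrane arm, and Atp5d (-0.38), the delta subunit of ATP synthase, were lower. All 10 called members had arrays that did not overlap. Except for Ndufa6 and Cox7a1, each of these 10 lost the call with median centring. The strain difference and the cell type difference between these groups cannot be told apart.

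Cox7a1, Cox5a, Ndufa6 and Atp5c1 were called higher in both comparisons, that is at passage 5 over MEF and at passage 15 over MES. These 4 are 6.15% of members, near the 5.27% of all genes called higher in both. Cox5a read 12.51, 12.43 and 12.19 in MEF, 12.69, 13.00 and 12.92 at passage 5, 13.26, 13.38 and 13.55 at passage 15, and 12.74, 12.99 and 13.19 in MES. MEF arrays were the lowest and passage 15 arrays the highest, with passage 5 and MES overlapping. The comparisons share no array. Over both, 24 of the 65 members were called in at least 1 comparison (36.9%, against 52.9% of all genes).

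The 4 comparisons across chips had many more calls, in both directions. Passage 15 against MEF had 28 members higher (43.1%, against 38.4% of all genes) and 9 lower (13.8%, against 28.5%). Passage 15 against passage 5 had 17 higher (26.2%, against 29.8%) and 17 lower (26.2%, against 27%). MEF against MES had 13 higher (20%, against 26%) and 24 lower (36.9%, against 36.4%). Passage 5 against MES had 19 higher (29.2%, against 25.2%) and 14 lower (21.5%, against 28.2%), and the 14 became 9 without passage 5 replicate 3 and 8 without MES replicate 3. Counts of members whose arrays did not overlap were 33 above and 11 below for passage 15 against MEF (40.6% and 29.2% of all genes) and 24 and 19 for passage 15 against passage 5 (35.2% and 31.5%). They were 15 and 32 for MEF against MES (27.4% and 38.8%) and 19 and 19 for passage 5 against MES (30.2% and 34%). Member shares by the test were near those of all genes for most of these counts, and the lower share for passage 15 against MEF was further from its background. These comparisons share groups with each other and with those made within chips, and their calls cannot be told apart from chip.

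The directions across chips depended on the scaling. With median centring, the median of all genes moved from 0.13 to -0.31 for passage 15 against MEF, and the members from 28 higher and 9 lower to 9 and 19. For passage 15 against passage 5 it moved from 0.01 to -0.68, and the members from 17 and 17 to 2 and 44. For MEF against MES it moved from -0.16 to 0.25 (17 higher and 5 lower) and for passage 5 against MES from -0.05 to 0.61 (46 and 1). Relative to the median of all genes, the member median was 0.14 and 0.18 under the respective scalings for passage 15 against MEF, and 0.00 and 0.01 for passage 15 against passage 5. It was -0.09 and -0.16 for MEF against MES, and 0.02 and -0.01 for passage 5 against MES. Passage 15 against MES kept a median near 0 for all genes under both scalings (0.01 and -0.01).

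Some members separated the chips without overlap. The 6 arrays of chip 1 all lay above the 6 of chips 2 and 3 for 14 members (21.5%, against 18.9% of all genes) and all below for 8 (12.3%, against 12.9%), a count chosen after the values were seen. The 14 ran from Sdhb and Ndufb3 (0.45) to Uqcrh (1.13) and Atp5j (1.53). The 8 ran from Atp5k (-0.59) to Atp5a1 (-1.40) and Ndufb4 (-1.59). Complexes I, II, IV and V had members in both counts, with 6 and 4 from complex I, and complex III had Uqcrh and Uqcr11 above and 0 below.

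**Figure D3:**
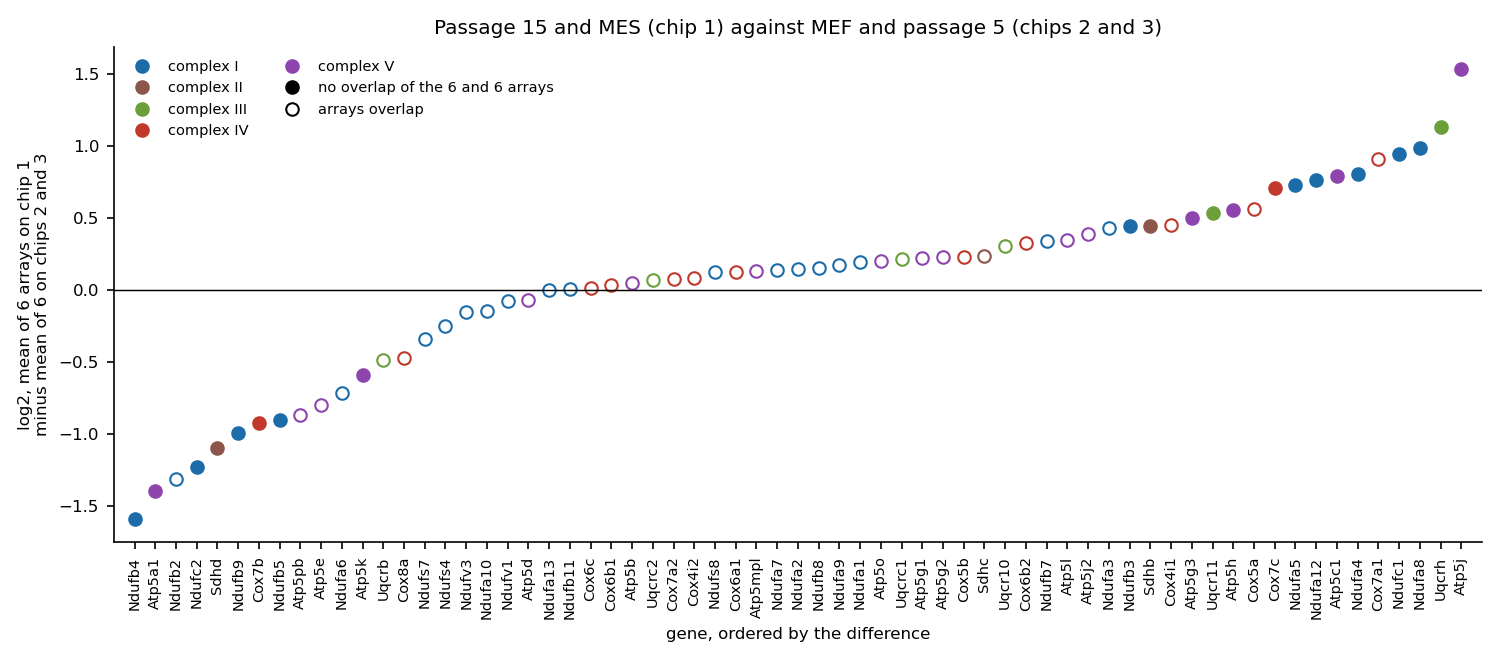
Mean log2 intensity of the 6 arrays on chip 1 (passage 15 and MES) minus the mean of the 6 on chips 2 and 3 (MEF and passage 5), vertical axis, for 65 genes in order of size, coloured by complex, with filled points where the 6 and 6 arrays do not overlap. Differences run from -1.59 (Ndufb4) to 1.53 (Atp5j), and every complex but complex III has filled points on both sides of 0.

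Atp5j, the peripheral stalk gene that fell at passage 5, read 8.28, 8.15 and 8.52 at passage 15 and 7.68, 8.25 and 8.09 in MES, above all MEF and passage 5 arrays. The difference of passage 15 from passage 5 was 2.05 (SE 0.21, adjusted p = 8.76e-06), or 4.15-fold. Uqcrh, the hinge protein of complex III, read 11.52, 11.36 and 11.01 in MEF, 11.31, 11.31 and 11.09 at passage 5, 12.30, 12.60 and 12.78 at passage 15, and 12.09, 12.32 and 12.32 in MES. Its MEF and passage 5 arrays overlapped, as did its passage 15 and MES arrays, and the 2 pairs were apart. Ndufa8 (1.14) and Ndufc1 (1.17) made up the 4 members higher at passage 15 than at passage 5 by at least 2-fold (6.73% of all genes), and 6 were lower (10.3%). The 6 became 12 without passage 15 replicate 3, and with median centring 1 was higher and 20 were lower.

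Ndufb4, of the membrane arm of complex I, read 9.73, 9.33 and 9.56 in MEF, 10.23, 9.91 and 10.38 at passage 5, 7.88, 8.39 and 8.73 at passage 15, and 8.48, 7.89 and 8.23 in MES. Chip 1 arrays were the lowest and did not overlap the rest. The difference of passage 15 from passage 5 was -1.84 (SE 0.22, adjusted p = 2.48e-05). Atp5a1, the alpha subunit of ATP synthase, read 11.66, 11.61 and 11.57 in MEF, 11.80, 11.72 and 12.02 at passage 5, 9.86, 10.34 and 10.76 at passage 15, and 10.31, 10.34 and 10.40 in MES. Atp5b, the beta subunit that alternates with alpha in the same catalytic head, was called in none of the 6 comparisons. Ndufb2 (-1.68), Sdhd (-1.18), a membrane anchor of complex II, and Ndufb9 (-1.08) were the others lower at passage 15 than at passage 5 by at least 2-fold, together with Ndufc2. Ndufc2 was not well above background on any passage 15 array and was at least 2.04-fold lower there than at passage 5 and at least 1.72-fold lower than in MEF.

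Against MEF, 7 members were higher at passage 15 by at least 2-fold (12.2% of all genes were). They were Cox7a1 (2.65, or 6.27-fold, adjusted p = 9.92e-07), Ndufa8 (1.37), Ndufc1 (1.35), Atp5j (1.32), Uqcrh (1.26), Atp5c1 (1.24) and Cox5a (1.02). The 3 that were lower by that measure (14.3% of all genes were) were Atp5a1 (-1.29), Ndufb4 (-1.21) and Ndufc2. Ndufc2 passed the filter only through MEF and passage 5 and counts here by its fitted difference. Its lower bound against MEF, given above, does not reach 2-fold. Its counts at 2-fold relative to MES, from MEF and from passage 5, likewise rest on MES values mostly at background. Relative to MES, passage 5 spheres had 11 members higher by at least 2-fold (9.96% of all genes), led by Ndufb2 (2.10), Ndufb4 (1.97) and Ndufa6 (1.57), and 2 lower (4.69%), Atp5j (-1.75) and Uqcrh (-1.01). MEF had 4 higher than MES by at least 2-fold (13%), Ndufb4 (1.34), Atp5a1 (1.27), Sdhd (1.01) and Ndufc2, which was detected on 1 of 3 MES arrays, and 3 lower (8.27%), Cox7a1 (-1.77), Cox4i2 (-1.07) and Atp5j (-1.02). With median centring these counts of higher and lower members became 1 and 10 for passage 15 against MEF, 21 and 0 for passage 5 against MES, and 12 and 1 for MEF against MES. For MEF against MES they were 2 and 1 in the authors' log2 table and without background correction, and the lower count was 5 without MEF replicate 1. For passage 5 against MES the lower count was 1 in those settings and without passage 5 replicate 3 or MES replicate 3. All of these differences lie across chips.

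Probes of the same gene gave a further reading of these differences. Of the 65 genes, 11 had more than 1 kept probe. Their probes opposed each other in sign for 2 of the 11 at passage 5 against MEF and for 4 at passage 15 against MES, and for 5, 7, 5 and 7 in the comparisons across chips, taken as passage 15 against MEF, passage 15 against passage 5, MEF against MES and passage 5 against MES. Probes of a gene were called in opposite directions for 0 genes in each comparison within chips, and for 2, 3, 1 and 2 across chips. Whether these shares differ was not tested. Gene counts rest on the brightest probe alone. In the fit among all probes, a further probe of Ndufa10 was called lower at passage 5 than in MEF (-0.54) and a probe of Cox5b higher. At passage 15 against MES, probes of Ndufa10 (-0.89) and Ndufb8 (-0.71) were called lower and a probe of Cox5b higher. The gene counts call Ndufa10 and Cox5b in neither comparison and Ndufb8 not at passage 15 against MES.

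Ndufa5, of the quinone-binding arm, showed the widest split. Its brighter probe read 11.09, 10.94 and 10.48 in MEF and 11.29, 11.38 and 11.39 at passage 15, and its other probe read 8.49, 8.51 and 8.40 in MEF and 7.31, 7.39 and 7.54 at passage 15. The difference of passage 15 from MEF was 0.52 for the first (adjusted p = 0.0175, fitted among all probes) and -1.06 for the second (adjusted p = 1.52e-04). Arrays did not overlap for either probe, and the directions were opposite. Within chips the same probes differed by -0.37 and -0.16 (passage 5 against MEF) and by -0.06 and 0.15 (passage 15 against MES), and neither was called. Sdhb was alike in part, since at passage 15 against passage 5 its brighter probe differed by 0.62 (-0.10 with median centring) and its other probe, close to background, by -0.39. Cox7c had both probes with 1 sign in all 6 comparisons, from 0.83 to 0.97 for passage 15 against passage 5.

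**Figure D4:**
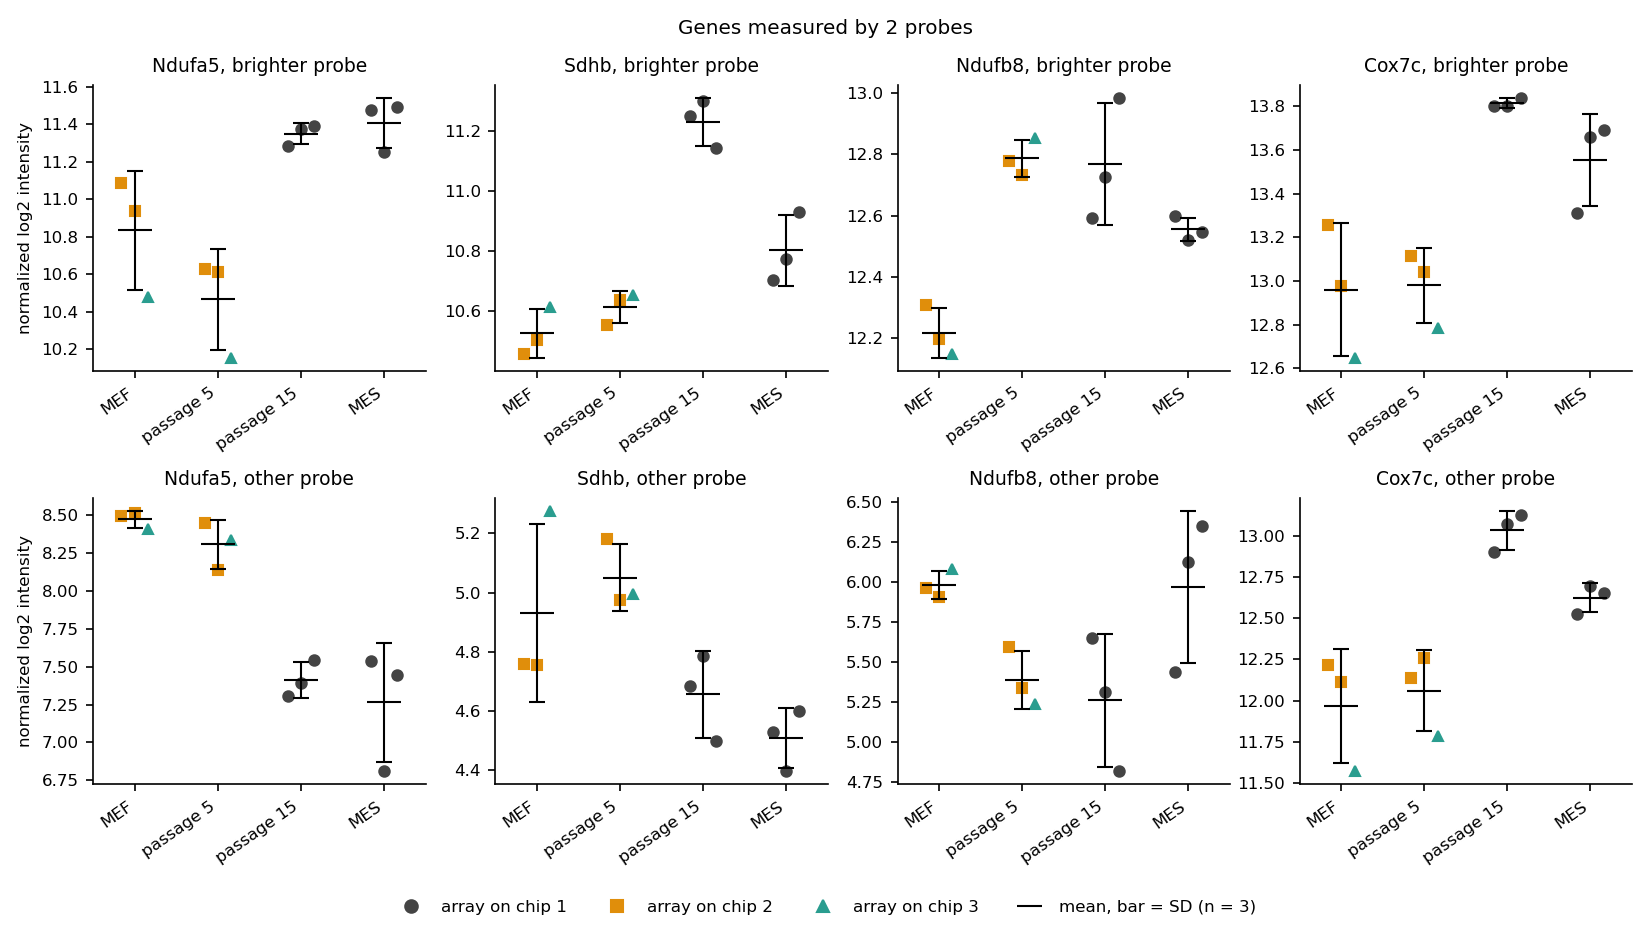
Normalized log2 intensity (vertical axis) of the brighter probe (upper row) and the other probe (lower row) of Ndufa5, Sdhb, Ndufb8 and Cox7c on each of the 12 arrays, by group, with marker shape and colour giving the chip and bars the mean and SD of 3 arrays. For Ndufa5 the chip 1 arrays lie above the rest for the brighter probe and below for the other, while for Cox7c they lie above for both.

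A set of 12 members was called in none of the 6 comparisons (18.5%, against 11% of all genes). It comprised Atp5b, Atp5g1 and Atp5g2 of complex V, Ndufa1, Ndufa2, Ndufa7, Ndufa9, Ndufa13, Ndufb11 and Ndufv1 of complex I, Uqcrc2 of complex III and Cox6b1 of complex IV. A missed threshold does not show that their levels were alike. Uqcrc2, a core protein, kept all 12 arrays between 11.61 and 11.95. Ndufa4, grouped with complex I by its symbol though now known to associate with complex IV, was called in all 4 comparisons across chips (0.77 for passage 15 against passage 5) and in neither comparison within chips (0.04 and -0.03).

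Genes that serve the chain and are not members were listed by role. The list of electron carriers and feeders includes the subunit genes Cyc1 and Ndufab1, which the symbol patterns do not match. None of the alternative settings, such as median centring or leaving out single arrays, was run for these lists. Assembly factors, which build the complexes, had 31 genes tested. From MEF to passage 5, 7 were higher (22.6%, near the 20.8% of all genes) and 3 lower (9.68%, against 15.2%), led by Acad9 (0.92), a complex I assembly factor, and Ecsit (0.61), with Cox15 (0.51), which makes the heme of complex IV, among the 7. Passage 15 had 9 higher (29%, against 14.8% of all genes) and 3 lower (9.68%, against 13.2%) than MES, led by Uqcc1 (1.23), a complex III assembly factor, and Lrpprc (0.98), which stabilises mitochondrial mRNA. The median was 0.04 and 0.13 in these comparisons. Across chips, passage 15 had 19 higher (61.3%, against 38.4%) and 4 lower (12.9%, against 28.5%) than MEF (median 0.64), among them Uqcc1 (2.37), Lrpprc (2.02) and Ndufaf7 (2.01).

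Regulators of mitochondrial biogenesis and transcription had 17 genes tested. Passage 5 had 3 higher than MEF, namely Polg (0.77) and Polg2 (0.63), subunits of the mitochondrial DNA polymerase, and Tfam (0.43), which packages mitochondrial DNA, and 1 lower, the coactivator Ppargc1b (-0.47). These are 17.6% and 5.88% of the list, against 20.8% and 15.2% of all genes. Passage 15 had 3 higher than MES, Gabpb1 (0.77), Gabpa (0.55) and Tfam (0.44), and 1 lower, Ppargc1b (-0.58), again 17.6% and 5.88%, against 14.8% and 13.2% of all genes. Gabpa and Gabpb1 encode the 2 chains of GABP, an ETS factor. Tfam read 8.81, 8.72 and 8.43 in MEF, 9.11, 9.24 and 8.88 at passage 5, 9.72, 9.92 and 9.92 at passage 15, and 9.23, 9.55 and 9.46 in MES. Its arrays overlapped between passage 5 and MES and between no other pair of groups. Nrf1 differed by -0.19 and -0.06 in the comparisons within chips and was not called. Passage 15 had 11 higher (64.7%, against 38.4%) and 0 lower (0%, against 28.5%) than MEF across chips, with the mitochondrial helicase gene Twnk at 2.36.

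Electron carriers and feeders had 10 genes tested, of which 2 were higher (20%, near the 20.8% of all genes) and 1 lower (10%, against 15.2%) at passage 5 than in MEF. The 2 were Etfb (0.63) and Etfdh (0.55), which pass electrons from fatty acid oxidation to ubiquinone, and Sqor (-0.47) was the lower one. Passage 15 had 3 higher than MES, Aifm1 (1.07), Etfa (0.97) and Etfdh (0.65), and 1 lower, Gpd2 (-0.72), which are 30% and 10% against 14.8% and 13.2% of all genes. The gene for cytochrome c, Cycs, differed by -0.18 and 0.11 and was called in neither. Of 13 genes of the tricarboxylic acid cycle and pyruvate dehydrogenase, 1 was higher (Idh3b, 0.56) and 1 lower (Dlat, -0.41) at passage 5 than in MEF. These are 7.69% each way, against 20.8% and 15.2% of all genes. Relative to MES, passage 15 had 4 higher (30.8%, against 14.8%) and 3 lower (23.1%, against 13.2%). Of 6 nucleotide carriers, porins and uncoupling proteins, Ucp1 was the 1 higher at passage 5 than in MEF (16.7%, against 20.8%). The 3 higher at passage 15 than in MES (50%, against 14.8%) were Vdac3 (0.70), Slc25a5 (0.43), an ADP/ATP carrier, and Slc25a3 (0.41), the phosphate carrier. Ucp1 read 5.07, 4.63 and 4.63 in MEF and 8.32, 8.85 and 9.05 at passage 5, so its MEF arrays were far below the rest.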

How the data were processed

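Total RNA was hybridised as biotinylated cRNA to Illumina bead arrays. The main table deposited by the authors holds a linear intensity per probe, background-subtracted (values reach below 0) but not normalized between arrays, beside a p-value of detection, so named per the file headers. A further deposited table holds the authors' log2 values, quantile normalized over the 12 arrays as its equal quantiles show, and served as an alternative. No source used here gives the software or genome build. Of 46657 probes in the tables, 20 were dropped because a spreadsheet had turned values into dates. In the platform annotation 24277 have no symbol and stay unnamed.

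From the deposited intensity values, normalized log2 values were computed with neqc in limma 3.58.1 (R 4.3.3), which corrects background from negative controls inferred from the detection p-value, adds an offset of 16 and quantile normalizes. The filter asked for a detection p under 0.05 in every array of some group, and the brightest such probe stood for its gene. One limma model with 4 group means was fitted to all 12 arrays, and p-values were adjusted by the Benjamini-Hochberg method over 9344 genes. A gene was called at an adjusted p under 0.05. Summed marker levels are linear. The precision is limited by 3 arrays a group. The code was tested on simulated data. By the naming rule any member may be named, with first place for up to 6 called members a direction whose arrays do not overlap, every member called with at least 2-fold, and members whose probes differ in sign. The rule takes up to 4 called genes of each pathway list, by the largest change in any comparison, and the other pathway genes named were chosen after their values were seen. Members, marker lists, pathway lists and tests were chosen with earlier results of these data known. Promoter windows came from RefSeq tables. Alternatives were the authors' log2 table, median centring, no background correction, 2 other detection filters, the mean over probes, a fit per probe, an intensity trend, a fit of only the groups compared, chip and replicate blocks, and leaving out each array.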

Additional observations from a re-analysis of the deposited data

How the results depend on the processing

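Of the counts of members called higher or lower, 170 alternative values stayed close to the reported ones and 34 moved. Medians are not part of this tally. With median scaling, passage 5 against MEF had 37 members higher and 0 lower, passage 15 against MEF 9 and 19, passage 15 against passage 5 2 and 44, MEF against MES 5 lower, passage 5 against MES 46 and 1, and passage 15 against MES 2 and 0. For passage 5 against MEF the lower count was 2 with no detection filter, 2 with chip as a fixed block and 3 on chip 2 alone. With chip as a fixed block 20 were higher (30.8%, against 22.4% of all genes), and the 2 lower were 3.08%, against 17.1%. Fitting only the groups compared left 1 lower for passage 15 against MES. Leaving out 1 array gave 7 to 16 higher and 0 to 3 lower for passage 5 against MEF, 24 to 30 and 6 to 13 for passage 15 against MEF, and 14 to 19 and 14 to 18 for passage 15 against passage 5. It gave 12 to 13 and 18 to 26 for MEF against MES, 15 to 20 and 8 to 12 for passage 5 against MES, and 4 to 13 and 0 to 4 for passage 15 against MES.

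Averaging all probes of a gene turned the sign of Ndufb8 (-0.0112) at passage 5 against MEF, of Ndufa5 (-0.27) and Ndufb8 (-0.0846) at passage 15 against MEF, and of Ndufa5 (-0.0027) and Ndufs4 (0.0045) at passage 15 against passage 5. It also turned Ndufa5 (0.32) and Sdhb (0.0731) for MEF against MES and Ndufa5 (0.0487) for passage 5 against MES. Median scaling turned Atp5mpl (-0.0319), Atp5o (-0.0492) and Ndufs8 (-0.0481) for passage 15 against MEF. For passage 15 against passage 5 it turned Atp5h (-0.0924), Atp5l (-0.22), Cox4i1 (-0.22), Cox5a (-0.15), Ndufb3 (-0.21), Sdhb (-0.10) and Uqcr11 (-0.18). For MEF against MES it turned Atp5g3 (0.0318), Cox6a1 (0.0074), Ndufb7 (0.18) and Sdhb (0.0364). For passage 5 against MES it turned Atp5c1 (0.24), Atp5g3 (0.22), Atp5l (0.14), Cox7c (0.0155), Ndufa12 (0.10), Ndufa8 (0.10), Ndufb7 (0.15), Ndufc1 (0.0797), Uqcr10 (0.19) and Uqcr11 (0.22). The cause was not tested.

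With the replicate number as a block, the replicate block fit called 16 members higher and 1 lower for passage 5 against MEF, and 7 and 2 for passage 15 against MES. Across chips it called 28 and 10, 17 and 17, 13 and 21, and 20 and 12, in the order passage 15 against MEF, passage 15 against passage 5, MEF against MES and passage 5 against MES. Same-numbered MEF and passage 5 arrays deviated together at r of 0.041, 0.272 and 0.138, and each passage 5 array correlated best with its own number. Replicate 3 of both groups lay on chip 3, so for that pair a shared number and a shared chip cannot be told apart. Since 1 of the r values is under 0.1, the arrays were treated as sharing only a number.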
